A study of Homo sapiens with 36 samples.

Results

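The 9 genes described here encode surface proteins that antibodies, antibody-drug conjugates or engineered T cells are aimed at in mantle cell lymphoma and related B-cell cancers. They are MS4A1, which encodes CD20, and CD22, CD37, CD38, CD5, CD52, ROR1, CD47 and CD24. The members were chosen by symbol, with earlier results of these data known. All 9 were found by Ensembl ID, through GENCODE release 44, among the 58302 genes of the deposited count tables. RNA had been sequenced from 36 cultures. They came from JEKO, MINO and UPN-1, which are established lines of this lymphoma. Each was given either GS716054, which inhibits the KDM5 histone demethylases, or its vehicle DMSO, and was collected after 24 h or 72 h. This gave 12 groups of 3 libraries, which the labels call biological replicates. All groups were grown in RPMI-1640 with serum, and the dose of GS716054 was not given in the sources used here. Each line is 1 tumour-derived culture, so a difference between lines is a difference between 3 cultures. RNA was measured, and surface protein was not. The comparisons asked how each target differs among the lines, whether GS716054 changed it at either time, and how it moved with time in DMSO.

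KDM5 enzymes take methyl groups off lysine 4 of histone H3, a mark found at active promoters. CD20 is a membrane-spanning B-cell protein and the target of rituximab, which marks cells for complement and killer cells. CD22 and CD5 dampen signals from the B-cell receptor. CD22 does so by binding sialic acid and by recruiting phosphatases once the kinase LYN has phosphorylated its tail, and CD5 on B cells is a hallmark of mantle cell lymphoma. CD37 is a tetraspanin, CD52 is a small lipid-anchored glycoprotein bound by alemtuzumab, and CD38 is an enzyme that breaks down NAD and binds PECAM1. ROR1 is a receptor for WNT5A that is largely silent in healthy adult B cells. CD47 and CD24 hold back macrophages by binding SIRPA and SIGLEC10.

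Each library held between 8784815 and 14970876 counts in genes, and 3 counts, the most that a count of 0 allows, equal 0.196 to 0.353 CPM, the unit used here for read counts scaled to a common library size. The lowest count of any member in any library was 10, for CD5 in UPN-1.  The B-cell markers CD79A, CD79B, PAX5 and BLK and both mantle cell lymphoma markers (CCND1 and SOX11) were detected in every line. CD2, a T-cell gene, was at 0 in every line, the erythroid markers summed to at most 0.273 CPM and the monocyte markers to at most 6.58 CPM in any library. The 8 T-cell markers, of which CD7 is one, summed to 43.9 to 142 CPM in JEKO, 191 to 636 CPM in MINO and 39.5 to 71.4 CPM in UPN-1. As group means in DMSO at 24 h, TRAC stood at 46.3, 82.0 and 55.8 CPM in the same order. CD7 stood at 4.62, 133 and 0.0244 CPM. CD3D was at 0.279, 0 and 0 CPM, CD3E at 0.0575, 1.89 and 0.320 CPM and CD3G at 1.11, 0 and 0.886 CPM. T cells also express CD5, and the part of such transcripts in the CD5 values was not tested. In the mixture of cells of a culture, more cells with a transcript and more transcript per cell cannot be told apart. At 72 h, 1 replicate number in each line stood apart from the other two in both treatments. In MINO it was replicate 2, with a chi-square per degree of freedom of 81.2 and 86.5 against the other DMSO libraries, which differed from each other by 13.4. In JEKO it was replicate 1 (49.1 and 41.9, against 21.9 between the others), and in UPN-1 replicate 3 (28.9 and 34.8, against 18.9). At 24 h GS716054 replicate 2 of JEKO stood apart from its group (33.2 and 35.0, against 6.64). Without it the log2 effect there was -0.98 for CD38, against -0.25 with it, and -0.02 for CD52, against -0.30, and neither was called either way. Libraries of the same number at the same time deviated together, with r over 0.1 in each pair, in every comparison except JEKO at 24 h. There r was 0.131, 0.0552 and 0.213 for replicates 1 to 3. A fit with the replicate number as a block within each time is therefore given beside a result where it changes the call.

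In the GENCODE annotation of GRCh38, MS4A1 lies on chromosome 11 at 60455846 to 60470752 and CD5 on the same chromosome at 61102489 to 61127852. CD22 (35319261 to 35347361) and CD37 (49335171 to 49343335) are on chromosome 19, and CD52 (26317958 to 26320523) and ROR1 (63774017 to 64181498) are on chromosome 1. CD38 is on chromosome 4 (15778275 to 15853232), CD47 on chromosome 3 (108043091 to 108091862, minus strand) and CD24 on chromosome 6 (106969831 to 106975627, minus strand). All are protein-coding, and the values are read counts over all exons of a gene. Exons of ENSG00000197813 and TEAD2, antisense to CD37, cover 10.8% of its exon bases, and UBXN11, antisense to CD52, covers 2.7%. Whether counting used strand was not given in the sources used here. It cannot be told whether reads from these shared bases entered the counts of CD37, CD52 or their neighbours, or were left out as ambiguous. CD24 has near-identical copies in the genome, so its counts are uncertain: the copy CD24P4 held 0.362 to 1.59 CPM as group means.

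The RefSeq table held a promoter, the 250 bases before the transcription start on GRCh38.p14, for 6 of the 9 members, CD22, CD38, CD52, ROR1, CD47 and CD24. It held none for MS4A1, CD37 and CD5. Shown here are the promoters of CD52 and CD22, which rose in MINO, and that of CD47, which was called in no treatment comparison. They are written 5′ to 3′ on the strand of the gene, with every CG dinucleotide, the site of DNA methylation, in capitals. Those of CD22 and CD47 lie inside the bounds of the GENCODE gene, since RefSeq places the start further in.
CD52, chr1:26317708-26317957, plus strand: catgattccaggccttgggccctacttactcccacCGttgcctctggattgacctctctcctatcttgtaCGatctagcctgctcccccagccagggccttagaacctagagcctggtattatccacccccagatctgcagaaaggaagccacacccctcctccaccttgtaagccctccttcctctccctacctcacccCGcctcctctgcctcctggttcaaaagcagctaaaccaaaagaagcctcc
CD22, chr19:35328937-35329186, plus strand: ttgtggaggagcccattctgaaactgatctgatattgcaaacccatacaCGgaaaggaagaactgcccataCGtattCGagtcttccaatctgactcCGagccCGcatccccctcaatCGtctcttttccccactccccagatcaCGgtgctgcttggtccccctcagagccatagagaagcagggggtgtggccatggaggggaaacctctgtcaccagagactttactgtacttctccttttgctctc
CD47, chr3:108091032-108091281, minus strand: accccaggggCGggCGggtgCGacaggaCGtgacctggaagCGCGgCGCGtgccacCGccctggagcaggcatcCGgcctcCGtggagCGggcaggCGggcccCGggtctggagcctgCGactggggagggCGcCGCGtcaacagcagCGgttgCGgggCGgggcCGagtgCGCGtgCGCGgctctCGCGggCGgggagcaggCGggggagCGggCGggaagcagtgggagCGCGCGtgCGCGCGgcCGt
The CD52 promoter held 3 CG dinucleotides, that of CD22 held 7 and that of CD47 held 39, beside a median of 11 over the 35116 promoters of the table. CD38 had 3, ROR1 had 24 and the 3 CD24 entries had 17 to 27. As few as 3 were found in 29.3% of all promoters, and 97.8% had 39 or fewer. Neither the E-box CACGTG nor the octamer ATGCAAAT, searched on both strands, was found in the entries of the 6 members. CACGTG occurs in 6.34% and ATGCAAAT in 1.63% of all promoters of this length.

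The lines differed widely in which targets they carried. Levels are given per kilobase of exon, so that genes can be compared, in DMSO at 24 h as mean ± SD (n = 3). CD24 and MS4A1 led in JEKO, with 94.0 ± 11.8 and 87.5 ± 5.18 CPM per kb, and their libraries overlapped. CD52 (23.5 ± 5.79) and CD37 (20.7 ± 1.44) came next and overlapped with each other. Below them, without overlap between neighbours, stood CD47 (13.9 ± 0.394), ROR1 (5.85 ± 0.203), CD5 (4.41 ± 0.407), CD22 (2.63 ± 0.332) and CD38 (0.910 ± 0.353). MINO was led by CD52 with 316 ± 23.3 CPM per kb, above MS4A1 with 219 ± 32.2, CD24 with 130 ± 23.7 and CD37 with 72.8 ± 6.72. CD38 (21.7 ± 3.06) and CD5 (21.3 ± 1.38) overlapped in MINO, and CD47 (10.2 ± 0.572), ROR1 (4.90 ± 0.737) and CD22 (3.33 ± 0.440) followed without overlap. In UPN-1, CD24 led with 203 ± 14.7 CPM per kb, ahead of MS4A1 with 106 ± 3.27. CD52 (27.7 ± 8.41) and CD47 (27.5 ± 1.81) overlapped there, as did ROR1 (10.1 ± 0.577) and CD38 (8.69 ± 1.69). CD37 (20.3 ± 2.61) reached into the range of CD52 and not into that of CD47, CD22 was at 3.98 ± 0.563, and CD5 was lowest at 0.703 ± 0.168 CPM per kb.

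**Figure D1:**
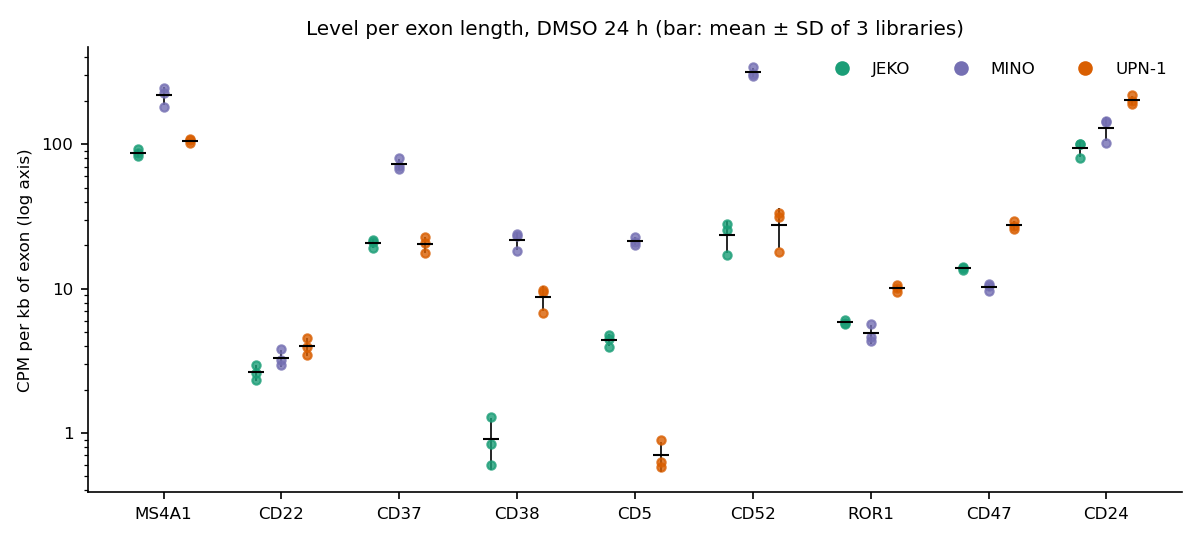
Level of the 9 target genes per exon length in DMSO at 24 h (CPM per kb of exon, log axis), by line, with points for the 3 libraries and bars for mean ± SD. MINO stands above both other lines for MS4A1, CD37, CD38, CD5 and CD52, and UPN-1 for ROR1, CD47 and CD24.

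A gene was called when its Benjamini-Hochberg adjusted p over all genes tested, from edgeR's quasi-likelihood test, was under 0.05. Between lines, 6 of the 9 members were called for MINO against JEKO, where 48% of all 17980 genes were called. The corresponding counts were 5 of 9 beside 44.9% of genes for UPN-1 against JEKO, and 8 of 9 beside 44.4% for UPN-1 against MINO. With close to every other gene called, the counts for the first pair of comparisons say little about the members as a set. The sizes varied far more. CD38, at 4.11, 8.87 and 5.73 CPM in JEKO (replicates 1 to 3), stood at 158, 125 and 164 CPM in MINO and at 65.4, 67.0 and 46.2 CPM in UPN-1. Its level was thus 23.7-fold higher in MINO than in JEKO (adjusted p = 7.17e-13) and 2.50-fold lower in UPN-1 than in MINO (adjusted p = 0.000251). CD5 read 12.4, 14.96 and 14.0 CPM in JEKO, 71.6, 63.2 and 65.5 CPM in MINO and 2.80, 1.82 and 1.98 CPM in UPN-1. The 3 lines did not overlap, and CD5 was 30.3-fold lower in UPN-1 than in MINO (adjusted p = 2.66e-14). CD52 read 26.1, 24.0 and 15.9 CPM in JEKO, 288, 320 and 278 CPM in MINO and 31.4, 29.3 and 16.9 CPM in UPN-1. MINO was 13.4-fold above JEKO (adjusted p = 5.72e-10), while JEKO and UPN-1 overlapped and were not called as different (log2 difference 0.23, 95% interval -0.48 to 0.93).

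The remaining targets differed less among the lines. MS4A1 was 2.50-fold and CD37 3.52-fold higher in MINO than in JEKO, and neither was called between UPN-1 and JEKO. CD47 ran the other way, with its highest level in UPN-1, 2.69-fold above MINO (adjusted p = 2.18e-11) and 1.98-fold above JEKO. CD24 was 2.15-fold higher in UPN-1 than in JEKO (adjusted p = 3.26e-05). Its 1.56-fold excess over MINO was called with all libraries (adjusted p = 0.00914) and not without MINO DMSO replicate 2 (adjusted p = 0.0764). ROR1 was 2.06-fold higher in UPN-1 than in MINO. The 1.73-fold excess of ROR1 over JEKO (adjusted p = 0.0324) was lost without any 1 of 5 of the 6 libraries, JEKO replicates 1, 2 and 3 and UPN-1 replicates 2 and 3 (adjusted p up to 0.081). CD22 was called in none of the 3 comparisons, with log2 differences of 0.25 to 0.59.

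Tested line by line without the block, GS716054 changed 3 targets, all of them upward and all in MINO. With the block there were also calls in the other lines, and CD37 (JEKO) and CD38 (MINO and UPN-1) fell at 72 h. In MINO, without the block, MS4A1 and CD22 rose at 24 h, which is 2 of 9 members beside 2.39% of 15028 genes, and MS4A1 and CD52 rose at 72 h, 2 of 9 beside 5.56%. The median log2 fold change of the 9 members in MINO was 0.69 at 24 h, where the median of all genes was 0.01, and 0.46 at 72 h, where it was -0.03. In JEKO the member median was -0.02 at 24 h and 0.26 at 72 h, beside -0.006 and 0.004 for all genes. In UPN-1 it was 0.04 and 0.02, beside 0.0002 and -0.002. In JEKO no member was called by edgeR at either time, beside 0.018% of 16690 genes at 24 h and 0.3% at 72 h. In UPN-1 none was called either, beside 0.0262% of 15248 genes at 24 h and 0.334% at 72 h. At an unadjusted p under 0.05, JEKO had 0 members at 24 h (3.97% of genes) and 4 at 72 h (8.62%), and UPN-1 had 0 (3.78%) and 1 (7.41%). DESeq2 called 1 member at 72 h in each of these lines, CD37 in JEKO (1.38% of genes) and MS4A1 in UPN-1 (1.04%), and none at 24 h. With the block within each time, 6 members were called in MINO at each time, beside 15.8% of genes at 24 h and 20.2% at 72 h. Of those in MINO 5 were higher and 1, CD38, was lower at 72 h, and all 6 were higher at 24 h. The block gave 2 members for JEKO at 72 h (MS4A1 higher, CD37 lower, beside 3.34% of genes). It gave 3 for UPN-1 (MS4A1 and CD52 higher, CD38 lower, beside 7.47%) and none in either line at 24 h. Where a value is said below to be called only with the block, the edgeR fits with and without it are meant. Statements below on the overlap of groups describe the values listed. The share of all genes without overlap, or with all same-numbered pairs in 1 direction, is not set beside them. Both used all 12 libraries of a line. Fits of only the 6 libraries compared, without the block, called further members in MINO at 24 h and none there at 72 h. In MINO DESeq2 called 4 members at 24 h (MS4A1, CD22, CD37 and CD52, beside 6.5% of genes) and 3 at 72 h (MS4A1, CD22 and CD52, beside 10.4%).

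**Figure D2:**
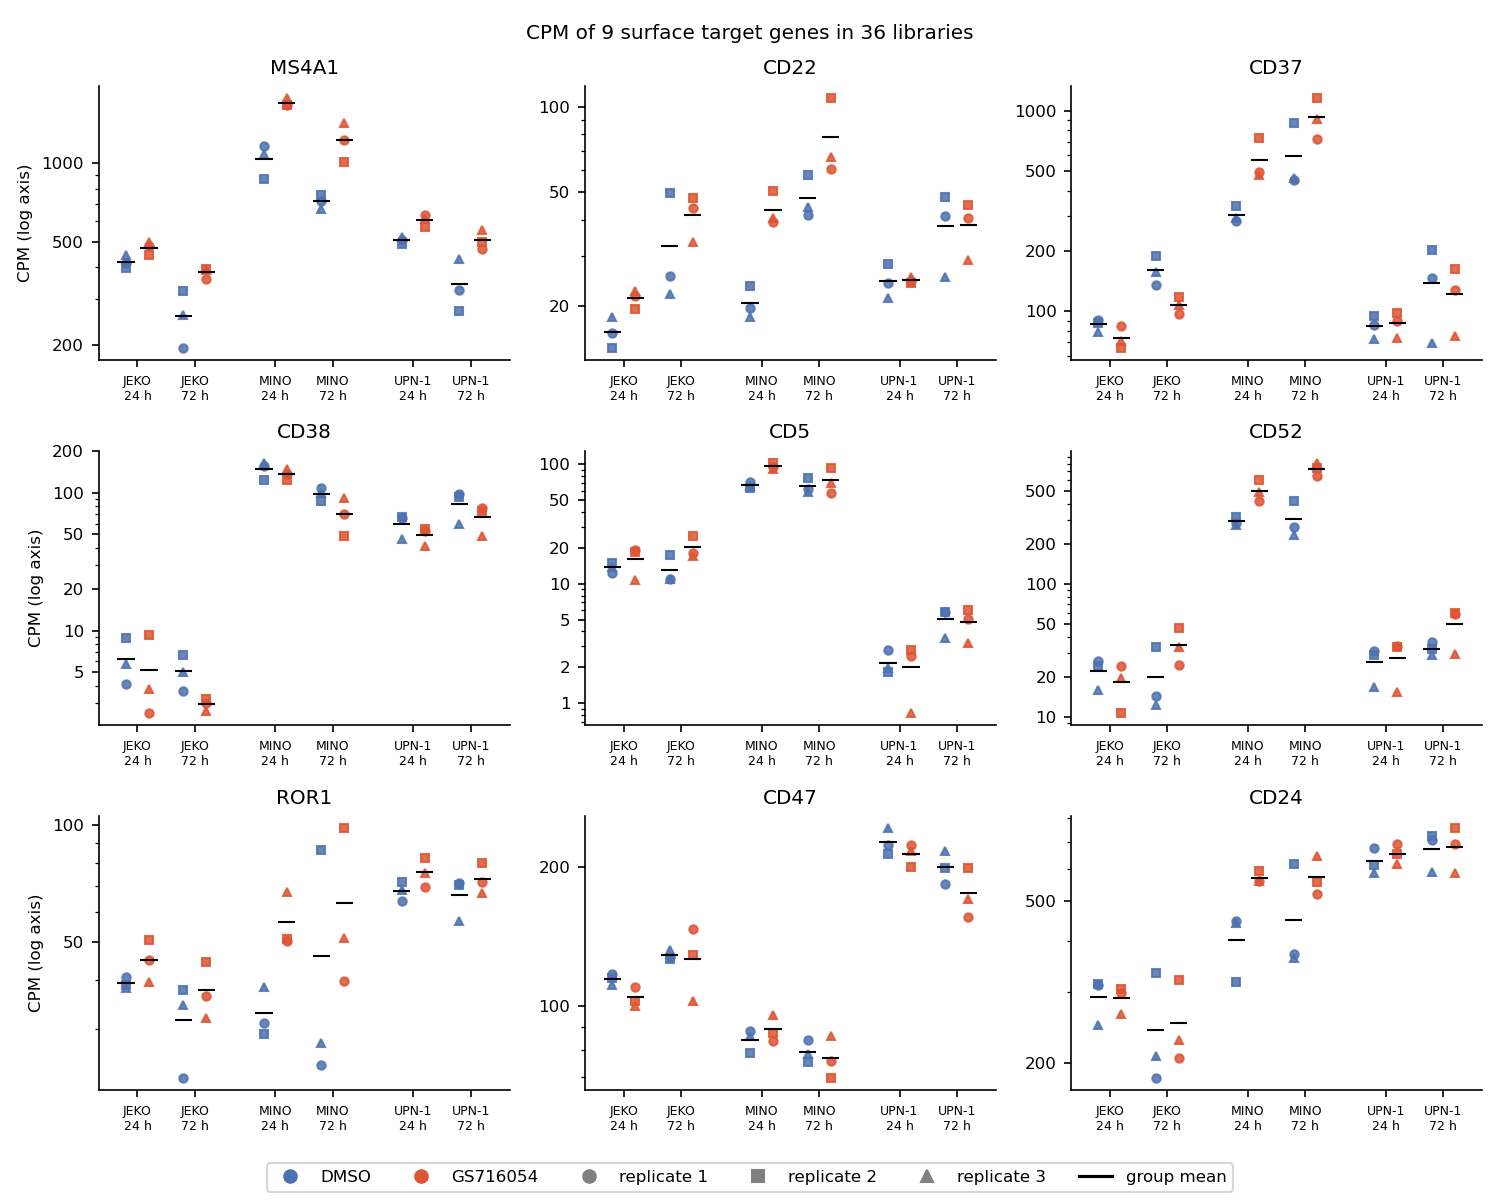
CPM of each target in all 36 libraries (log axis, a separate scale per gene), by line, time and treatment, with a marker shape per replicate number and a bar at the group mean. MS4A1 stands higher with GS716054 in every line and time, and MINO DMSO 72 h replicate 2 stands apart for ROR1, CD37 and CD24.

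MS4A1, the CD20 gene, rose in MINO at both times, and its values stood higher with GS716054 in the other lines too. In MINO at 24 h it read 1167, 871 and 1090 CPM in DMSO (replicates 1 to 3) and 1683, 1684 and 1781 CPM with GS716054. At 72 h the MINO values were 716, 759 and 670 CPM in DMSO and 1235, 1012 and 1433 CPM with GS716054. The groups did not overlap at either time. The rise was 1.61-fold at 24 h (log2 0.69 ± 0.16 SE, adjusted p = 0.0460) and 1.70-fold at 72 h (log2 0.77 ± 0.16 SE, adjusted p = 0.0181). In JEKO at 72 h MS4A1 read 195, 323 and 260 CPM in DMSO and 358, 394 and 389 CPM with GS716054, again without overlap. In UPN-1 at 72 h it read 327, 270 and 430 CPM in DMSO and 468, 499 and 557 CPM with GS716054, also without overlap. These differences, log2 0.56 for JEKO (adjusted p = 0.267) and 0.59 for UPN-1 (adjusted p = 0.143), were called only with the block within each time (adjusted p = 0.0270 and 3.1e-05). At 24 h the groups of JEKO just met, at 394 to 443 CPM in DMSO and 442 to 500 CPM with GS716054, and those of UPN-1 lay apart, at 490 to 522 and 568 to 631 CPM, and neither line was called with or without the block. In all, the GS716054 library stood above the DMSO library of the same number in 9 of 9 pairs at 24 h and 9 of 9 at 72 h. By the rule used (r over 0.1 in each pair) the JEKO libraries at 24 h were not taken as pairs, since r was 0.0552 for replicate 2. ROR1 was also higher in 9 of 9 pairs at 24 h, and in 8 of 9 at 72 h. How many of all genes do so was not counted. Over the lines together MS4A1 rose by log2 0.63 at 72 h (adjusted p = 5.05e-05), a call kept without any 1 of the 18 libraries. The MINO calls were less steady. That at 24 h was lost without any 1 of its 6 libraries (adjusted p 0.113 to 0.177). Fitted on only those 6 libraries, it was kept (adjusted p = 0.00207). The call at 72 h was lost without DMSO replicate 1, DMSO replicate 3 or GS716054 replicate 3 (adjusted p up to 0.0705). It was also lost when only its 6 libraries were fitted (adjusted p = 0.146).

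CD52, the alemtuzumab antigen, rose in MINO at 72 h. It read 268, 417 and 233 CPM in DMSO and 645, 738 and 804 CPM with GS716054, and the groups lay far apart. The increase was 2.36-fold (log2 1.24 ± 0.20 SE, adjusted p = 0.00453) and was kept without any 1 of the 6 libraries. Fitted on only these 6 libraries it was not called (adjusted p = 0.0755). Without DMSO replicate 2, the highest of its group, it was larger, at log2 1.49. At 24 h MINO read 288, 320 and 278 CPM in DMSO and 418, 599 and 488 CPM with GS716054, a log2 difference of 0.73 that was called only with the block (adjusted p = 0.00754, against 0.0767 without it). Fitted without the block on only the 6 libraries of MINO at 24 h, CD52 was called (adjusted p = 0.00299). The other lines carried CD52 at a much lower level. JEKO at 72 h read 14.4, 33.5 and 12.3 CPM in DMSO and 24.6, 46.4 and 33.5 CPM with GS716054, with overlap and no call (log2 0.80, 95% interval 0.01 to 1.59, adjusted p = 0.575). UPN-1 at 72 h read 36.3, 32.1 and 29.0 CPM in DMSO and 59.6, 60.1 and 29.5 CPM with GS716054, where replicate 3 did not share the higher level. This log2 difference of 0.63 was called only with the block (adjusted p = 0.00405, against 0.679). At 72 h CD52 was higher with GS716054 in 9 of 9 same-numbered pairs, and over the lines together it rose by log2 0.89 (adjusted p = 0.0047), also without any 1 of the 18 libraries. UBXN11, whose exons overlap those of CD52, had group means of 251 CPM in DMSO and 564 CPM with GS716054 in MINO at 72 h, and its part in the CD52 counts was not tested.

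CD22, which restrains the B-cell receptor, rose in MINO at 24 h. It read 19.7, 23.5 and 18.3 CPM in DMSO and 39.4, 50.6 and 40.6 CPM with GS716054, with no overlap, an increase of 2.08-fold (log2 1.06 ± 0.21 SE, adjusted p = 0.0255). With any 1 of the 6 libraries left out the call was lost (adjusted p 0.0625 to 0.135). It was kept when only these 6 libraries were fitted (adjusted p = 0.000743). At 72 h MINO read 41.7, 57.5 and 44.5 CPM in DMSO and 60.3, 107 and 66.8 CPM with GS716054. The log2 difference of 0.69 was called only with the block (adjusted p = 0.00119, against 0.0687). Without the block it was 0.40 when GS716054 replicate 2 was left out (adjusted p = 0.166) and 0.80 when DMSO replicate 2 was left out (adjusted p = 0.0355). In JEKO, CD22 read 16.1, 14.3 and 18.4 CPM in DMSO and 21.6, 19.5 and 22.7 CPM with GS716054 at 24 h, without overlap and without a call (log2 0.38, 95% interval -0.17 to 0.92). In UPN-1 the log2 differences were 0.00 and 0.02, with 95% intervals from -0.45 to 0.45 at 24 h and from -0.41 to 0.45 at 72 h.

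CD37 stood higher with GS716054 in MINO and lower in JEKO. In MINO it read 282, 335 and 293 CPM in DMSO and 498, 732 and 480 CPM with GS716054 at 24 h, with no overlap. At 72 h MINO read 454, 870 and 464 CPM in DMSO and 726, 1156 and 914 CPM with GS716054, where DMSO replicate 2 reached into the treated group. The log2 differences of 0.88 at 24 h and 0.63 at 72 h were called only with the block (adjusted p = 0.00123 and 0.00408, against 0.0914 and 0.164). Fitted without the block on only the 6 libraries of each time, CD37 was called at 24 h (adjusted p = 0.00265). At 72 h it was not called in that way (adjusted p = 0.375). Without DMSO replicate 2 the 72 h difference was log2 0.97 and was called without the block too (adjusted p = 0.0140), and without GS716054 replicate 2 it was 0.46 (adjusted p = 0.320). In JEKO at 72 h CD37 read 135, 189 and 158 CPM in DMSO and 96.7, 118 and 107 CPM with GS716054, every treated library lower. That log2 difference of -0.58 was called with the block (adjusted p = 0.0149) and by DESeq2 (adjusted p = 0.0292), but not without the block (adjusted p = 0.168). UPN-1 gave log2 0.04 at 24 h and -0.17 at 72 h, neither called. ENSG00000197813, which overlaps CD37 on the opposite strand, went from 154 to 250 CPM in MINO and from 41.9 to 25.9 CPM in JEKO at 72 h as group means. Its part in the CD37 counts was not tested.

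CD38, the NAD-consuming enzyme, had lower values after treatment in every line at 72 h. MINO read 109, 87.8 and 100 CPM in DMSO and 70.3, 48.5 and 92.6 CPM with GS716054. UPN-1 read 97.7, 93.3 and 59.5 CPM in DMSO and 77.4, 74.5 and 48.4 CPM with GS716054. JEKO, at the bottom of the range, read 3.69, 6.72 and 5.03 CPM in DMSO and 2.98, 3.18 and 2.62 CPM with GS716054. The groups overlapped in MINO and UPN-1 and lay apart in JEKO, while the treated library was the lower one in 9 of 9 same-numbered pairs at 72 h and in 8 of 9 at 24 h. The log2 differences at 72 h were -0.50 in MINO, -0.31 in UPN-1 and -0.81 in JEKO (95% interval -1.71 to 0.10). None was called without the block, and those of MINO and UPN-1 were called with it (adjusted p = 0.0103 and 0.00752). Without the block the MINO value was -0.30 when GS716054 replicate 2 was left out and -0.61 when DMSO replicate 2 was. The mean over the lines at 72 h was log2 -0.54 (95% interval -0.90 to -0.18, adjusted p = 0.0725), called with the block (adjusted p = 7.3e-05) and by DESeq2 (adjusted p = 0.0462). Plasma cells also express CD38. The 4 plasma cell markers summed to 141 to 413 CPM in JEKO, 658 to 1712 CPM in MINO and 164 to 581 CPM in UPN-1, and none was at 0. Of them TNFRSF17 fell at 72 h over the lines together (log2 -1.02, adjusted p = 0.00995), with group means going from 71.3 to 31.5 CPM in MINO, from 20.9 to 9.66 CPM in JEKO and from 9.02 to 5.25 CPM in UPN-1. PRDM1 rose in JEKO at 72 h. Its group means went from 3.64 to 9.23 CPM there, from 12.6 to 8.51 CPM in MINO and from 8.19 to 11.3 CPM in UPN-1. In the same order, SDC1 went from 1.35 to 3.94, from 15.8 to 13.6 and from 5.56 to 12.7 CPM. JCHAIN went from 161 to 196, from 1082 to 1145 and from 380 to 302 CPM. The part of such cells or transcripts in the CD38 values was not tested.

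**Figure D3:**
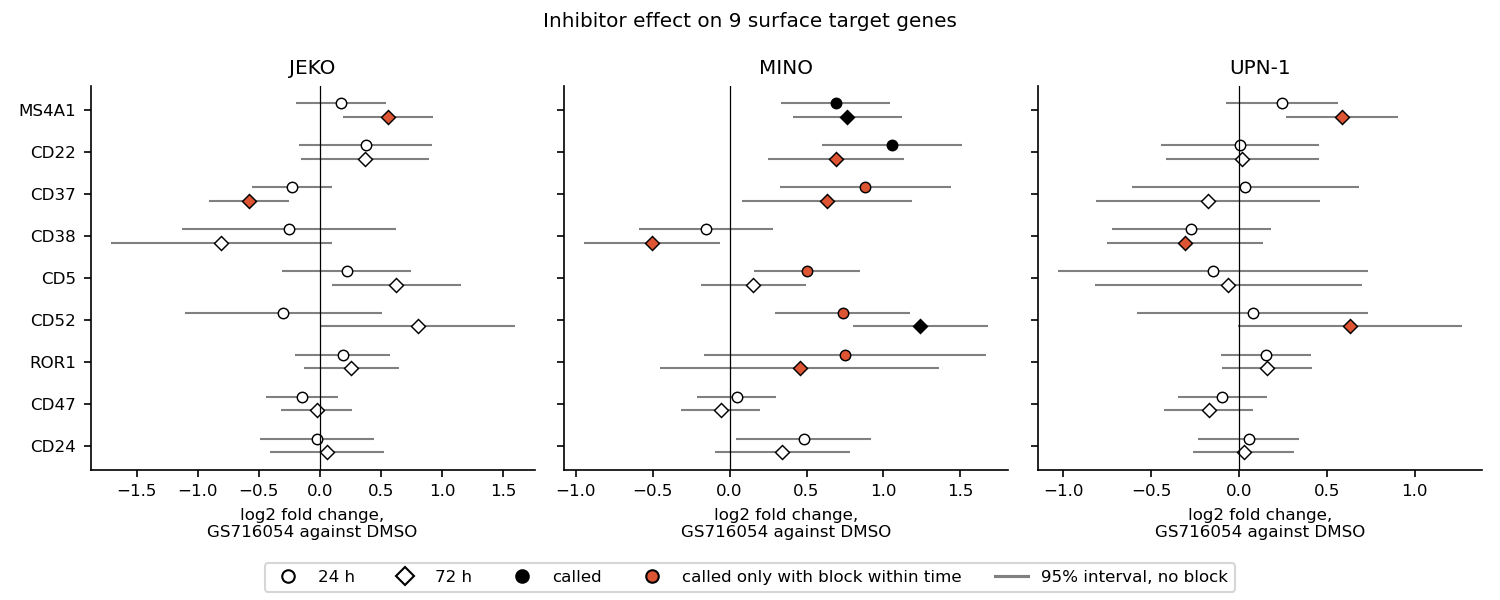
Log2 fold change of each target, GS716054 against DMSO, in each line at 24 h (circles) and 72 h (diamonds), with 95% intervals from the fit without a block. Black symbols were called, orange symbols were called only with the replicate block within each time, and white symbols were not called. MS4A1 lies right of 0 and CD38 left of 0 in all 6 comparisons, and the symbols of CD47 lie close to 0.

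ROR1 read 31.1, 29.1 and 38.5 CPM in DMSO and 50.5, 51.2 and 67.3 CPM with GS716054 in MINO at 24 h. The groups did not overlap, yet the log2 difference of 0.75 was called only with the block (adjusted p = 0.00231, against 0.388). Fitted without the block on only these 6 libraries, ROR1 was called (adjusted p = 0.00421). At 72 h MINO read 24.2, 86.2 and 27.6 CPM in DMSO and 39.7, 98.2 and 51.5 CPM with GS716054, so that replicate 2 stood far above the others in both treatments. The log2 difference of 0.46 (adjusted p = 0.569) was called with the block (adjusted p = 0.00807). It became 1.23 without DMSO replicate 2 (adjusted p = 0.0257) and -0.000721 without GS716054 replicate 2 (adjusted p = 0.999). In JEKO and UPN-1 the log2 differences of ROR1 were 0.15 to 0.26, with no call by either fit. CD5 read 71.6, 63.2 and 65.5 CPM in DMSO and 96.0, 102 and 91.6 CPM with GS716054 in MINO at 24 h, again with no overlap. Its log2 difference of 0.50 was called only with the block (adjusted p = 0.00754, against 0.119), and at 72 h it was 0.15 and not called. Fitted without the block on only the 6 libraries of MINO at 24 h, CD5 was called (adjusted p = 0.00447). In JEKO at 72 h CD5 differed by log2 0.63 (95% interval 0.10 to 1.15, adjusted p = 0.465).

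CD47 and CD24, the ligands that restrain macrophages, were called in no treatment comparison by either fit of all 12 libraries of a line. CD47 ranged from 100 to 147 CPM in JEKO, from 69.6 to 95.3 CPM in MINO and from 156 to 243 CPM in UPN-1 over all 12 libraries of a line. Its log2 differences lay between -0.17 and 0.05, and the 95% intervals of the 6 comparisons reached from -0.44 to 0.30. Each interval was taken alone, from the fit without the block, and a change of 1.5-fold lay outside it. CD24 ranged from 184 to 332 CPM in JEKO, from 317 to 645 CPM in MINO and from 588 to 756 CPM in UPN-1. In MINO at 24 h it read 447, 317 and 441 CPM in DMSO and 563, 595 and 560 CPM with GS716054, with no overlap (log2 0.48, 95% interval 0.04 to 0.92, adjusted p = 0.235). CD24 was called there when only those 6 libraries were fitted (adjusted p = 0.0186). At 72 h the MINO difference was log2 0.34, and it was called only without DMSO replicate 2 (log2 0.60, adjusted p = 0.0293).

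**Figure D4:**
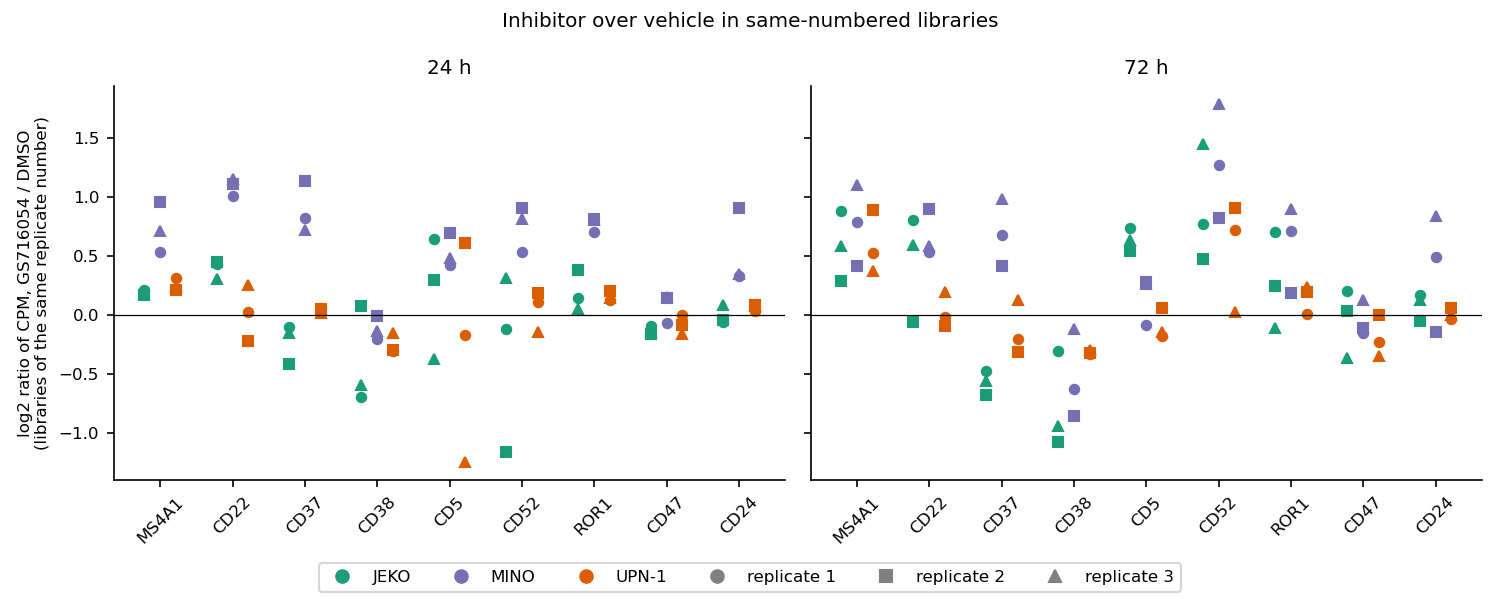
Log2 ratio of CPM between the GS716054 and the DMSO library of the same replicate number, for each target at 24 h and at 72 h, by line and replicate number. All 9 MS4A1 pairs lie above 0 at both times, as do all 9 ROR1 pairs at 24 h and all 9 CD52 pairs at 72 h. All 9 CD38 pairs lie below 0 at 72 h. How many of all genes have such pairs was not counted.

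Tests of the difference itself were made among the lines and between the times. None of the 9 members was called as different among lines by edgeR, beside 0.106% of 17980 genes at 24 h and 1.01% at 72 h, and DESeq2 called none. At an unadjusted p under 0.05 there were 2 members at 24 h (CD22 and CD37), beside 7.37% of genes, and 1 at 72 h (CD37), beside 11.2%. With the block within each time, CD22 and CD37 were called at both times, beside 5.74% and 9.78% of genes. The range of the effect over the lines was 1.07 (log2) for CD22 and 1.13 for CD37 at 24 h, and 0.70 and 1.23 at 72 h. For MS4A1 that range was 0.22 at 72 h. Between 72 h and 24 h no member's effect was called as different in any line, by edgeR with or without the block or by DESeq2, and none had an unadjusted p under 0.05. Without the block 0% of genes were called in JEKO and UPN-1, and 0.0133% in MINO. For CD52, which was called at 72 h and not at 24 h in MINO, the effect at 72 h minus that at 24 h was log2 0.50 with a 95% interval of -0.11 to 1.12. As means over the lines, 1 of 9 members was called at 24 h (MS4A1, log2 0.39, adjusted p = 0.0338) beside 0.929% of genes. That call was lost without any 1 of 15 of the 18 libraries. At 72 h 2 of 9 were called (MS4A1 and CD52) beside 4.66%. The block raised these counts to 4 members (MS4A1, CD22, CD37 and ROR1, beside 9.2% of genes) and 5 members (MS4A1, CD22, CD38, CD52 and ROR1, beside 16.7%). DESeq2 called 2 (MS4A1 and CD22, beside 2.38%) and 3 (MS4A1, CD38 and CD52, beside 7.09%).

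Time in DMSO culture gave calls for MS4A1, CD22 and CD37 in JEKO. There 3 of 9 members were called at 72 h against 24 h, beside 31.7% of 16690 genes, so the share is near the background. MS4A1 fell from 417 ± 24.7 to 259 ± 63.9 CPM (log2 -0.69, adjusted p = 0.00941), CD22 rose from 16.2 ± 2.05 to 32.4 ± 15.1 CPM (log2 1.00, adjusted p = 0.0103) and CD37 rose from 86.0 ± 6.01 to 160 ± 27.1 CPM (log2 0.90, adjusted p = 0.00158), each mean ± SD with n = 3. These calls were kept without any 1 of the 6 libraries. In MINO the log2 differences were -0.54 for MS4A1, 1.22 for CD22 and 0.97 for CD37, and in UPN-1 they were -0.56, 0.66 and 0.73. None of the 9 was called by edgeR in MINO (0.0932% of genes) or UPN-1 (1.47%). At an unadjusted p under 0.05 there were 4 members in MINO, beside 23.8% of genes, and 5 in UPN-1, beside 25.5%. DESeq2 called MS4A1, CD22 and CD37 in JEKO (35% of genes) and MINO (7.41%), and MS4A1, CD22 and CD5 in UPN-1 (6.73%). CD5 in UPN-1 read 2.80, 1.82 and 1.98 CPM in DMSO at 24 h and 5.78, 5.82 and 3.53 CPM at 72 h, without overlap (log2 1.20, adjusted p = 0.0914 by edgeR and 0.0431 by DESeq2). CD38 had a log2 difference of -0.59 in MINO and 0.50 in UPN-1, and neither was called. These comparisons share their DMSO libraries with the treatment comparisons above. Beside the DMSO values, the effects of GS716054 at 72 h were 0.56, 0.77 and 0.59 for MS4A1 in JEKO, MINO and UPN-1, 0.37, 0.69 and 0.02 for CD22, and -0.58, 0.63 and -0.17 for CD37.

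Genes that work with the targets were read from lists of their ligands, enzymes and signalling partners. Of the ligands, partners and processing enzymes, 1 of 10 tested rose in MINO at 24 h and 2 of 10 at 72 h, where 1.44% and 3.51% of all genes rose, and none was called in JEKO or UPN-1 without the block. With the block 2 rose at 24 h in MINO, and 3 rose and 2 fell at 72 h. It also gave 1 of 12 that rose in JEKO and 2 of 11 in UPN-1 at 72 h, while 1 of 11 fell in UPN-1 at 24 h. Of all genes with the block, 8.43% rose in MINO at 24 h, and 10.4% rose and 9.8% fell at 72 h. At 72 h 1.89% rose in JEKO, and 4.18% rose and 3.29% fell in UPN-1, where 0.577% fell at 24 h. ST6GAL1, which makes the sialic acid linkage that CD22 binds, rose by log2 0.80 at 24 h and 0.82 at 72 h in MINO. PECAM1, the partner of CD38, rose in MINO at 72 h from a group mean of 3.22 CPM in DMSO (log2 2.19 ± 0.32 SE, adjusted p = 0.00254). Its effect at 72 h differed among the lines (adjusted p = 0.000474). Of the inhibitory signalling used by CD22 and CD5, 1 of 10 rose in MINO at each time: LYN, by log2 0.76 at 24 h (adjusted p = 0.0155) and 0.55 at 72 h. With the block 3 of these 10 rose at 24 h and 2 at 72 h in MINO, and 1 fell at 24 h and 3 at 72 h in UPN-1. Of the complement regulators, which shield cells from complement called in by antibodies, 3 of 5 were tested, none was called without the block in any line, and 1 fell with it in MINO at 72 h. SIRPA, the receptor of CD47, was called only with the block in MINO (log2 0.82 at 24 h and 0.68 at 72 h), and its highest group mean in UPN-1 was 0.0899 CPM, below the 3-count floor.

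Some relatives of the targets and some other B-cell antigens rose in MINO, where 1.44% of all genes rose at 24 h and 3.51% at 72 h, and 0.952% and 2.05% fell. With the block 8.43% rose and 7.36% fell at 24 h, and 10.4% rose and 9.8% fell at 72 h. In the other lines at 72 h, the block gave 1.89% that rose and 1.44% that fell in JEKO. In UPN-1 it gave 4.18% and 3.29%. Of the tetraspanin and MS4A relatives, 3 of 14 tested rose at 24 h and 3 at 72 h, and with the block 6 rose at each time and 1 fell at 24 h. CD82, a tetraspanin like CD37, rose at 24 h from 8.16 to 35.0 CPM (log2 2.06), and at 72 h it went from 11.4 to 52.7 CPM, also called. CD9 rose by log2 1.79 at 72 h, and MS4A7, a relative of MS4A1 held at 0.493 CPM in DMSO at 72 h, rose with GS716054 to 2.73 CPM. MS4A6A rose by log2 1.67 at 24 h and was close to 0 CPM in both other lines. Among 40 tested other B-cell surface antigens, 5 rose at 24 h and 7 at 72 h in MINO, none fell, and the medians were log2 0.45 and 0.28. The largest at 24 h were CD83 (1.17), CXCR5 (0.98), CD40 (0.93) and TNFRSF13C (0.78), and at 72 h FCER2 (1.18), CXCR5 (1.16), CD79A (1.07) and CD83 (0.92). With the block 14 rose and none fell at 24 h, and 13 rose and 6 fell at 72 h. In JEKO at 72 h 1 of 36 was called (4 higher and 2 lower with the block), SIGLEC10, the receptor of CD24, which rose from 27.6 to 46.5 CPM (log2 0.75, adjusted p = 0.0299). In UPN-1 at 72 h 1 of 33 was called (7 higher and 4 lower with the block), CD84, a homophilic receptor of the SLAM family, which fell by 0.77 on the log2 scale. Of 17 B-cell transcription factors, TCF4 rose at 24 h in MINO, and TCF4, SPIB and IKZF3 rose at 72 h. With the block 7 of them rose in MINO at 24 h, and at 72 h 5 rose and 2 fell. The block gave 2 that rose and 4 that fell for UPN-1 at 72 h. In JEKO at 72 h PRDM1, which drives plasma cell differentiation, rose by log2 1.34.

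Across the 36 libraries, with each gene centred on the mean of its line, the members shared patterns only in part. Pearson's r, given as a description over libraries that share groups, was 0.82 between CD22 and CD37, 0.75 between ROR1 and CD24 and 0.65 between CD22 and CD52. MS4A1 had r of -0.32 with CD37 and -0.18 with CD22. CD47 had r between -0.25 and 0.04 with each of the other members. The 3 genes most alike in pattern were TMEM50A, STK17A and NFATC3 for MS4A1 (r 0.85 to 0.89), BAIAP3, DYRK1B and UBE2H for CD22 (0.89 to 0.90) and RAB6A, CAMK2D and RAB30 for ROR1 (0.87 to 0.90). For CD37 and CD52 the closest was the gene that overlaps them on the opposite strand, ENSG00000197813 (r 0.98) and UBXN11 (0.91). YPEL3 and STARD5 followed for CD37 (both 0.92), and LGALS1 and CD27-AS1 for CD52 (0.84 and 0.80). CD24 was most like GPR183, CYTIP and VAMP7 (0.83 to 0.86) and CD5 like SERPINB1, GPR55 and PYGM (0.78 to 0.81). The weakest matches were those of CD38 with MAP2K3, GPM6A and PI4K2B (0.68 to 0.73) and of CD47 with MCOLN2, C1GALT1C1 and LIG4 (0.68 to 0.75).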

How the data were processed

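Per the submitters' processing notes, the tools were HISAT2 2.2.1 and HTSeq 0.13.5 with the build GRCh38. The authors deposited raw read counts per Ensembl gene, 1 table per library, with no normalisation stated. For annotation release and strandedness, the sources used here give nothing. Summary lines that name no gene (no feature 43.3% to 45.9% of reads, ambiguous 1.98% to 2.6%, low quality 3.49% to 4.96%, not aligned 1.13% to 2.04%, not unique 3.55% to 4.92%) were left out.

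Groups were taken from the labels. The main test was that of edgeR 4.0.16 under R 4.3.3 (quasi-likelihood test, TMM-scaled library sizes for the test and for CPM, filterByExpr with minimum count 10 and minimum total 15, Benjamini-Hochberg over all genes tested). Treatment and time effects came from 1 fit per line (12 libraries, 8 residual degrees of freedom), and line levels, means over lines and differences among lines from 1 fit of all 36 libraries. All 9 members passed the filter in every fit. Group means are given as mean ± SD over 3 libraries.

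The labels number the replicates. Correlations of the deviations of same-numbered DMSO and GS716054 libraries at the same time ran from 0.0552 to 0.593 and were over 0.1 in 17 of 18 pairs, the exception being JEKO at 24 h. Between times they were over 0.1 in 7 of 18. The numbers were therefore taken to pair libraries within a time, except in JEKO at 24 h, and this block was added after seeing the data.

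Alternatives were DESeq2 size factors, DESeq2 1.42.0, no filter on low counts, a minimum count of 50, the replicate number as a block over both times, other sets of libraries and leaving out each library. The fit was tested on simulated data: of 100 genes changed 2-fold at 72 h the fits for JEKO, MINO and UPN-1 recovered 52, 60 and 72. Genes left unchanged that were called numbered 5, 10 and 14. The simulated libraries were drawn independently, without deviations shared by replicate number, outlying replicates or a time effect. Promoters and figures were handled in Python 3.11.15 with matplotlib 3.10.9.

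The members and lists were chosen with earlier results of these data known. Named were the 9 members, up to 4 called genes of largest change per list and comparison, and the 3 genes most alike in pattern to each member. SIRPA, called only with the block, was named after its values were seen. Counts of 0 and CPM floors cover counting error only.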

Additional observations from a re-analysis of the deposited data

Results flagged for a closer look

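The effect of GS716054 differed among the 3 lines for 2 of the 9 targets when the replicate number was a block within each time. CD37 had an adjusted p for the difference of 0.000213 at 24 h, with log2 effects of -0.23 for JEKO, 0.88 for MINO and 0.04 for UPN-1. At 72 h its adjusted p was 2.83e-05, with log2 effects of -0.58, 0.63 and -0.17. CD22, the sialic acid receptor, had an adjusted p of 0.00283 at 24 h, with log2 effects of 0.38, 1.06 and 0.00 in the same order. At 72 h its adjusted p was 0.0496, with log2 effects of 0.37, 0.69 and 0.02. The p-values come from edgeR's quasi-likelihood test over 17980 genes, and without the block they were 0.477 and 0.24 for CD37 and 0.449 and 0.664 for CD22. At 24 h the numbers did not pair the JEKO libraries by the rule used.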

How the results depend on the processing

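With 3 libraries a group, 52 to 72 of 100 simulated 2-fold changes were recovered at 72 h, so smaller effects could be missed. The simulation lacked the deviations shared by replicate number seen here, so these shares may not hold for the real libraries. The replicate block within each time was not recomputed with libraries left out. The block over both times does not match how the numbers pair the libraries. The chosen scaling moved the median of all genes by at most 0.043 (log2).

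The number of the 9 members called moved with the setting, and the cause was not tested. The share of all genes called moved too, so the counts alone say little about the members. With the block over both times it was 6.61% at 24 h and 10.2% at 72 h in MINO. In UPN-1 at 72 h it was 1.46%. For the mean over lines it was 2.36% at 24 h and 8.6% at 72 h, and for the difference among lines 1.37% and 2.94%. For DMSO over time it was 12.1% in MINO and 18.3% in UPN-1. Shares for DESeq2 and the block within each time stand above, and others are not given here. In MINO at 24 h the 2 calls became 1 with DESeq2 size factors, 5 with no filter on low counts, 4 with the replicate block, 6 with the block within each time, 7 with only the 6 libraries compared, 4 with DESeq2 and 0 to 0 with 1 library left out. In MINO at 72 h 2 became 4 with no filter, 5 with the block, 6 with the block within each time, 0 with only the 6 libraries and 1 to 6 with 1 library left out. In JEKO at 72 h 0 became 1 with no filter, 2 with the block within each time and 1 with DESeq2. In UPN-1 at 72 h 0 became 2 with no filter, 1 with the block, 3 with the block within each time, 1 with DESeq2 and 0 to 1 with 1 library left out. The mean over lines went from 1 at 24 h to 3 with no filter, 2 with the block, 4 with the block within each time, 2 with DESeq2 and 0 to 1 with 1 library left out, and from 2 at 72 h to 4, 4 and 5 under the first 3 of these and 2 to 3 with 1 library left out. For the difference among lines, 0 became 3 with no filter, 1 with the block and 2 with the block within each time at 24 h, and 1, 1 and 2 at 72 h, with 0 to 1 with 1 library left out. For DMSO at 72 h against 24 h, 0 in MINO became 3 with no filter, 1 with a minimum count of 50, 4 with the block, 2 with all 36 libraries, 3 with DESeq2 and 0 to 1 with 1 library left out, and 0 in UPN-1 became 5 with no filter, 5 with the block, 3 with DESeq2 and 0 to 5 with 1 library left out.

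Other than with a library left out, the direction turned only for differences that were not called. For the effect at 72 h minus that at 24 h these were CD22 in JEKO (0.00297, 0.0246 and 0.0588), CD22 in UPN-1 (-0.0198 and -0.0107) and ROR1 in UPN-1 (-0.00346, -0.0249, -0.0177 and -0.00347). For DMSO over time they were CD5 in JEKO (0.0068), CD5 in MINO (0.00171) and ROR1 in UPN-1 (0.0107).

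With 1 library left out, some log2 differences turned sign, and their lowest and highest values follow. For the treatment effect in JEKO these were -0.979 to 0.0846 for CD38 and -0.128 to 0.0354 for CD24 at 24 h, and -0.158 to 0.0861 for CD47 and -0.147 to 0.348 for CD24 at 72 h. In MINO they were -0.0216 to 0.0813 for CD47 at 24 h, and -0.04 to 0.288 for CD5, -0.000721 to 1.23 for ROR1 and -0.158 to 0.00932 for CD47 at 72 h. In UPN-1 at 24 h CD22 gave -0.0933 to 0.114, CD37 -0.0618 to 0.144, CD5 -0.453 to 0.25 and CD52 -0.163 to 0.374. At 72 h CD22 gave -0.206 to 0.215, CD37 -0.498 to 0.19, CD5 -0.262 to 0.15 and CD24 -0.062 to 0.109. The effect at 72 h minus that at 24 h ran in JEKO from -0.226 to 0.429 for CD22, -0.899 to 0.167 for CD38, -0.126 to 0.211 for ROR1, -0.0123 to 0.232 for CD47 and -0.122 to 0.373 for CD24. In MINO it ran from -0.0533 to 0.207 for MS4A1, -0.413 to 0.102 for CD37, -0.738 to 0.491 for ROR1 and -0.271 to 0.131 for CD24. In UPN-1 it ran from -0.212 to 0.209 for CD22, -0.536 to 0.152 for CD37, -0.23 to 0.132 for CD38, -0.311 to 0.391 for CD5, -0.0903 to 0.0736 for ROR1, -0.173 to 0.00189 for CD47 and -0.118 to 0.0458 for CD24. DMSO over time gave in JEKO -0.503 to 0.0681 for CD38, -0.317 to 0.0522 for CD5 and -0.704 to 0.131 for CD52. In MINO it gave -0.128 to 0.0434 for CD5, -0.216 to 0.211 for CD52, -0.324 to 0.771 for ROR1 and -0.114 to 0.292 for CD24, and in UPN-1 -0.091 to 0.0641 for ROR1. CD37 ran from -0.116 to 0.0673 for UPN-1 against JEKO and from -0.152 to 0.0823 for the mean over lines at 72 h. None of these differences was called with all libraries without a block. With the block within each time, ROR1 in MINO at 72 h was (adjusted p = 0.00807).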
